A study of Arabidopsis thaliana with 21 samples.

Results

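FIE (FERTILIZATION INDEPENDENT ENDOSPERM) is a WD40-repeat protein of Arabidopsis thaliana and the plant counterpart of Drosophila ESC. It is a core subunit of Polycomb repressive complex 2 (PRC2), which trimethylates lysine 27 of histone H3 (H3K27me3) at genes that are held silent, and in plants PRC2 is best known for keeping floral, meristem and seed genes off outside their proper stage. Described here are the regions enriched by chromatin immunoprecipitation and sequencing (ChIP-seq) of FIE against input chromatin of the same line. Members were all regions of the authors' FIE list that lie on nuclear chromosomes 1 to 5, which were 5006 of 5142 rows of that list and 5006 of 16032 nuclear regions in the 4 lists of the series.

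The FIE ChIP group and its input group each held 3 samples labelled as biological replicates, out of 21 samples in 7 groups. Both came from plants of the C24 accession with a FIE-HA transgene driven by the FIE promoter in a fie-11 background, so the transgene and the mutant allele were shared by ChIP and control. The antibody was anti-HA clone 12CA5, the plants were 30 h old and untreated, and they were grown on plates of MS medium under days of 16 h light and 8 h dark. Whole plants were used, so cell types cannot be told apart. H3K27me3 (against total H3) and the Myc-tagged DNA-binding proteins AZF1 and BPC1 (against input) were profiled at the same age in the Col accession, and each has 1 list of its own. AZF1 carries C2H2 zinc fingers, and BPC1 binds GA-rich DNA.

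One list stands for each ChIP group, and the fold enrichment over input, the −log10 q and the summit of a region are the authors' values, with no replicate error and no read counts behind them. Depth is therefore unknown, and no difference below could be set against the spread between replicates. All intervals on shares are 95% Wilson intervals that cover counting error over regions or genes alone, and neighbouring regions and genes are not independent. Positions are in TAIR10, counted from 1. Overlap with the other lists is between accessions.

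The FIE regions were short and mostly of moderate enrichment. Fold enrichment ran from 2.38 to 26.8, with a median of 4.70 and quartiles of 4.02 and 5.65, and 145 regions reached 10. Widths ran from 109 to 12320 bp with quartiles of 173 and 461 bp. Wide regions were the more enriched ones: 353 regions of at least 1000 bp (7.05%) had a median fold of 8.10, against 4.62 for the narrower ones. Across the 5006 regions the Spearman correlation of fold with width was 0.38 (a description, since both come from the same reads). The widest region of all was an exception with a fold of 4.94. The 3 regions closest to the list's lower limit of 10 in −log10 q had folds of 3.85, 4.61 and 4.09 and lay nearest to AT3G42310, the NAC gene NAC074 and AT2G07360.

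Among the 15 most enriched regions were some in or near regulators of flower, meristem and branch development. The others lay at other named genes, at loci without a name in the annotation used here, or far from protein-coding genes. The highest fold, 26.8, was inside EMF1, which encodes a plant Polycomb protein needed to repress the floral programme (chromosome 5, 3693927 to 3697668). It was followed by 25.5 inside AGAMOUS (AG), the class C floral homeotic gene (chromosome 4, 10385729 to 10387137). A fold of 23.6 was found inside AT3G06436 (chromosome 3, 1969663 to 1971051). ROS3, an RNA-binding protein that acts in DNA demethylation, held a region of fold 20.2 (chromosome 5, 23522565 to 23523904). A region of fold 17.7 lay 3817 bp from SHOOT MERISTEMLESS (STM), the homeobox gene that maintains the shoot meristem (chromosome 1, 23065563 to 23066768). The region of fold 16.3 lay 2798 bp from BRANCHED1 (BRC1), a TCP gene that restrains bud outgrowth (chromosome 3, 6387439 to 6389312). For both of these genes the strongest region was thus outside the 1 kb margin used below.

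Folds of 15.9 inside NAC067 and 15.5 at 157 bp from MYB94, a MYB gene of cuticular wax synthesis, also fell in this group of 15. The region inside AT1G53690, of fold 17.3, was at the same time within 1 kb of the microRNA gene MIR169e. Regions nearest to AT2G03040 (17.04), AT5G06380 (16.0) and AT2G43660 (15.7) were the other ones on chromosome arms. The remaining 3, of folds 17.2, 16.2 and 15.9, stood far from any protein-coding gene, with AT3G32980 at 175786 and 221512 bp and AT5G30520 at 59391 bp. Of the 15 regions, 12 overlapped H3K27me3, 12 overlapped AZF1 and 15 of 15 overlapped BPC1. Over all FIE regions the shares were 49.7%, 27.8% and 23.5%.

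FIE regions fell into chromosome arms and gene-poor chromatin, and the surroundings of the regions differed between them. A window of 1 Mb was called gene-poor when it held fewer than 100 protein-coding genes. The 15 such windows carried 1497 regions (29.9%) and the 106 arm windows 3509 (70.1%). An arm window held 10 to 60 regions, with a median of 32, and a gene-poor window 25 to 378, with a median of 67. The 2 kinds of window overlapped in this count, and the highest value belonged to the stretch of chromosome 1 between 15 and 16 Mb. Median fold was 4.78 on arms and 4.49 in gene-poor windows, and median width 293 and 229 bp. H3K27me3 overlapped 64.4% of arm regions and 15.3% of gene-poor ones. AZF1 went the other way, with 18.2% and 50.4%, and BPC1 was near even, with 23.2% and 23.98%.

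On arms, 57.9% of summits (interval 56.3 to 59.5) were inside a protein-coding gene, where such genes cover 60.6% of the bases. Another 6.16% were inside a gene of another kind, such as a non-coding RNA gene or a pseudogene. Of the summits outside all genes, those within 1 kb of a protein-coding gene were 20.6% of the total and those farther than 3 kb from any 5.70%. FIE summits were thus placed in and beside arm genes about as often as arm bases are, 80.4% against 82.9% of bases inside or within 1 kb of a protein-coding gene, other genes disregarded. In gene-poor windows 3.21% of summits were inside a protein-coding gene, against 9.14% of bases, and 79.7% were outside all genes and over 3 kb from any protein-coding one. Summits inside genes were more frequent toward the gene ends. Their distance to the nearer end was counted in bins of 10% of the gene's length. Each bin thus held a stretch on both sides of the gene's middle, and even placement would give equal shares. From the ends to the middle, the bins held 28.5%, 21.9%, 18.1%, 16.3% and 15.2% of the 2080 summits. The gene table used gives no strand, so the start and the end of a gene cannot be told apart, and exons, introns and UTRs were not used here. On arms, 71.0% of the regions inside protein-coding genes overlapped H3K27me3, against 61.5% and 33.5% of those outside all genes and within 1 kb or over 3 kb away. In gene-poor windows the share was 12.7% over 3 kb away.

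A protein-coding gene was counted as marked by FIE when a summit lay in it or within 1 kb of either end. This held for 2560 of 27444 genes, or 9.33%, the background for every count of genes below. On arms the share was 9.38% of 26748 genes and in gene-poor windows 7.47% of 696. Long genes were not marked more often than short ones, with 9.82% in quartile 1 of gene length and 7.95% in quartile 4. A total of 2113 summits belonged to no protein-coding gene and 642 to more than 1, and 946 of the marked genes shared every summit with a neighbour.

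Most marked genes had a single summit. Each region of the list has 1 summit, so these counts follow how enriched stretches were cut into regions. STY1, with 1 region of 4140 bp, counted as 1 summit. LAS, with adjoining regions of 233, 1320, 1138 and 922 bp, counted as 4. A number of summits is therefore not a number of separate FIE sites. There were 1828 genes with 1 summit, 515 with 2, 168 with 3 and 49 with 4 or more, so that 732 genes (2.67% of all) had at least 2. The largest number was 6, at SAP, IDD5 and AT1G76250. STERILE APETALA (SAP), a regulator of flower and ovule development, had regions of fold 6.40, 6.70, 12.6, 7.36, 9.43 and 6.96 in order along chromosome 5 (13935076 to 13941148), 5 of them with their summit inside the gene. The third from the left was the highest, and the distances between summits ran from 594 to 1558 bp. IDD5, a C2H2 zinc finger gene of the INDETERMINATE DOMAIN family, had 6 summits in the gene (chromosome 2, 505129 to 509892) with folds of 9.40, 7.98, 5.65, 4.04, 5.997 and 6.57. Its 2 strongest regions lay together at one side. At AT1G76250 the 6 summits were 322 to 502 bp apart and the folds ran from 4.14 to 7.10 (chromosome 1, 28606545 to 28609143).

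A count of 5 summits was found at AT4G05475, AT2G02660, AT2G40435, ZFP8 and CUC3. CUP-SHAPED COTYLEDON3 (CUC3), a NAC gene of organ boundaries, had folds of 3.88, 3.46, 5.46, 4.70 and 5.17 over 1604 bp. ZFP8, a C2H2 zinc finger gene of trichome development, had 5 summits over 2318 bp, with folds from 3.58 to 5.87. The highest fold of these 5 genes was 8.30, at AT4G05475, below the 12.6 at SAP. Among genes with 4 summits, the highest folds were 16.0 at AT5G06380, 13.9 at LATERAL SUPPRESSOR (LAS), a GRAS gene needed for axillary meristems, and 12.1 at KANADI (KAN), which sets abaxial identity. WRKY57 reached 11.1, JACKDAW (JKD), a zinc finger gene of root patterning, 10.9, REPLUMLESS (RPL), a BELL homeobox gene, 10.7, and AT1G14950 9.99. In each of these 15 genes every region overlapped H3K27me3. Genes with 4 summits entered this group by their highest fold. Outside it, KNAT6 (8.15), ERF10 (8.05) and HB33 (7.48) also had 4 summits, without an H3K27me3 region in the gene or within 1 kb.

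**Figure D1:**
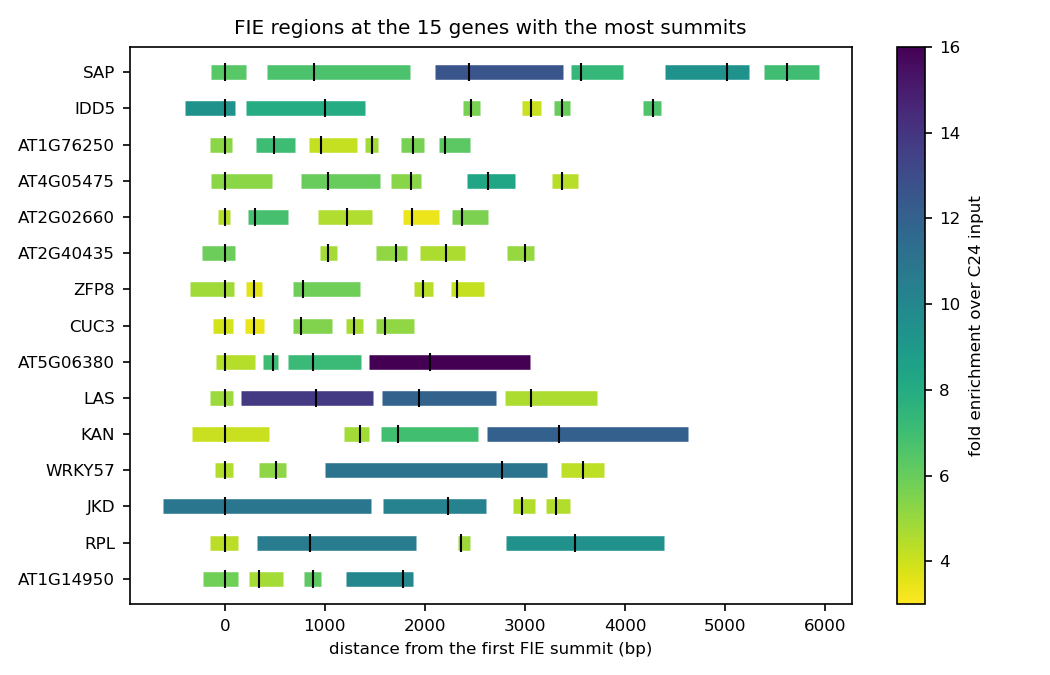
FIE regions at the 15 protein-coding genes with the most summits, 1 row per gene, plotted as distance in bp from the first summit. Bars are regions coloured by fold enrichment over C24 input and black ticks are summits; folds differ widely within a gene, as at AT5G06380 with folds from 4.46 to 16.0.

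Genes with more FIE summits were more often transcription factor genes. The gene families examined include 944 transcription factor genes, which are 3.44% of all protein-coding genes. They made up 2.52% of genes with no FIE summit, 7.93% of those with 1, 18.8% of those with 2, 31.0% of those with 3 (interval 24.5 to 38.3) and 46.9% of those with 4 or more (33.7 to 60.6). The median of each gene's highest fold was 4.52 with 1 summit, 5.89 with 2, 6.91 with 3 and 7.43 with 4 or more. A highest value taken over more summits tends to be larger, so this rise does not by itself link number to strength. The median gene length in these 4 groups was 1984, 1815, 2243.5 and 2442 bp.

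The other 3 lists were met more often at genes with more FIE summits. H3K27me3 covered or came within 1 kb of 23.3% of genes without a FIE summit, 59.3% with 1, 81.4% with 2, 87.5% with 3 and 93.9% with 4 or more. BPC1 summits were at 3.37%, 23.9%, 38.3%, 60.1% and 75.5% of the same groups. AZF1 showed the smallest range among marked genes, with 8.25%, 24.3%, 25.6%, 36.3% and 44.9%. Seen from the mark, 2631 of 3940 H3K27me3 regions held no FIE summit and had a median width of 2619 bp. Those with 1 summit were 2979 bp wide, those with 2 summits 4170, those with 3 summits 5715 and those with 4 or more 7989.5 bp at the median. Wider regions offer more bases for summits to fall in, and summits per kb were not computed.

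**Figure D2:**
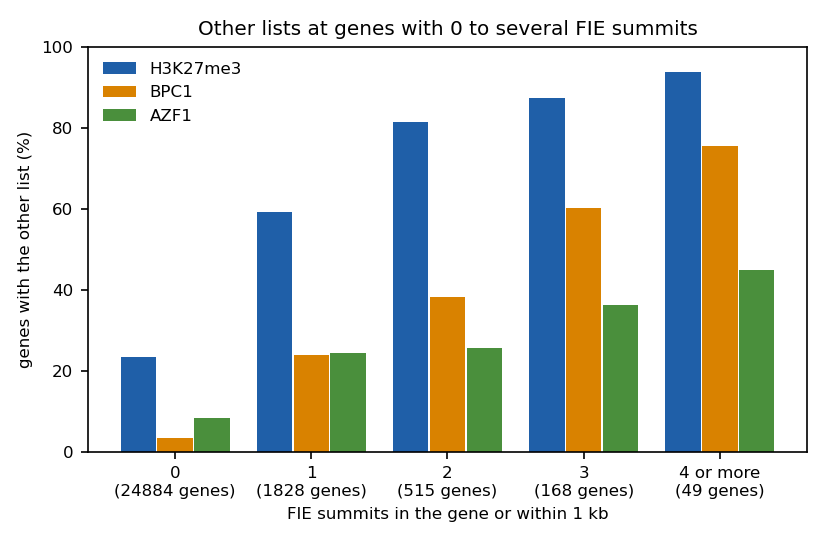
Share of protein-coding genes (vertical axis, %) that also have an H3K27me3 region, a BPC1 summit or an AZF1 summit in the gene or within 1 kb, by the number of FIE summits of the gene (horizontal axis). The H3K27me3 bars climb from 23.3% without FIE to 93.9% at 4 or more summits, and the BPC1 bars from 3.37% to 75.5%.

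Distances between neighbouring FIE summits on the arms had 2 peaks on a log scale, a short one near 1 kb and a longer one beyond 16000 bp. The median distance to the next summit was 3562 bp over all 5001 pairs, 8771.5 bp where both lay on arms and 1105 bp where both lay in gene-poor windows. On arms 510 pairs were 500 to 1000 bp apart and 454 were 1000 to 2000 bp apart. The count was 236 between 2000 and 4000 bp and 499 between 32000 and 64000 bp. Gene-poor windows had most pairs at the short range, with 423 at 500 to 1000 bp and 70 at 32000 to 64000 bp. Summits that belonged to the same gene were a median of 828 bp apart (quartiles 548 and 1233 bp, 1009 pairs). The closest summits were 201 bp apart, and the edges of separate regions were never closer than 76 bp.

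**Figure D3:**
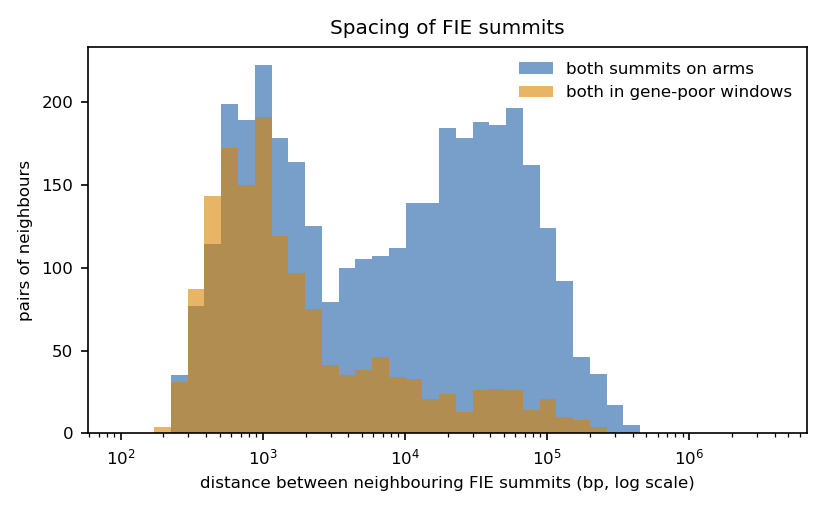
Number of pairs of neighbouring FIE summits (vertical axis) by the distance between them (horizontal axis, bp, log scale), for pairs on chromosome arms and pairs in gene-poor windows. The arm pairs form a peak near 1 kb and another beyond 16000 bp, with medians over all pairs of 8771.5 bp on arms and 1105 bp in gene-poor windows.

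Summits no more than 3 kb from the next were joined into chains, which took in 67.4% of all summits. There were 1634 single summits, 508 chains of 2 and 421 chains of 3 or more. On arms, regions in chains of 3 or more had a median fold of 5.19 and overlapped H3K27me3 in 81.4% of cases, against 4.52 and 46.5% for single ones. In gene-poor windows the chained regions had a median fold of 4.65, single ones 4.001, and H3K27me3 overlapped 13.8% and 18.4%. So chained regions on arms coincided with the mark more often than single ones, and those of gene-poor windows did not.

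The longest chains on arms, by number of summits, ran over stem cell and boundary genes and over arrays of unnamed genes. Others, next to gene-poor windows, ran over stretches with few or no protein-coding genes. The chain with the most summits, 34, spanned 35.1 kb of chromosome 4 (2921593 to 2956705) with folds from 2.96 to 5.05; no protein-coding gene was assigned to it and 0 of its regions overlapped H3K27me3. Another of 11 summits on chromosome 2 (3948316 to 3959219) was likewise without a gene and without the mark, and 10 summits at AT1G43730 had 0 in H3K27me3 and 7 with AZF1. Other chains covered genes in a row. On chromosome 4, 22 summits from 11047702 to 11080439 lay over AT4G20520 to AT4G20620, with folds of 4.62 to 6.69, and 19 of the 22 overlapped H3K27me3. These genes belong to the longest run of neighbouring protein-coding genes that were all marked, 21 genes from AT4G20520 to AT4G20670. On chromosome 5, 10 summits over AT5G17070 to AT5G17120 all overlapped the mark (5616307 to 5629893; folds 4.24 to 9.62).

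Chains at known regulators spanned less than those above and had higher highest folds, but not always higher median folds. Chains with equal numbers of summits were taken in order of highest fold. The highest fold of the chains with 7 summits, STM among them, may therefore reflect this choice. The median fold was 6.90 at BRC1, 6.03 at STM, 5.30 at LAS and 4.72 at SRS7. It was 5.65 over AT4G20520 to AT4G20620, 6.04 over AT5G17070 to AT5G17120, and 3.43 to 3.90 in the chains without the mark. LAS and its neighbour sks12 shared 9 summits over 7.99 kb with a highest fold of 13.9 (chromosome 1, 20760787 to 20768779). BRC1 had 8 over 10.5 kb, with a highest fold of 16.3 (chromosome 3, 6380198 to 6390678). SRS7, a gene of the SHI/STYLISH family, had 8 over 8.77 kb together with CNGC8 and ABCI14, and its highest fold was 12.0. STM had 7 over 10.04 kb, from 4.69 to 17.7 (chromosome 1, 23060024 to 23070059), of which 1 fell within 1 kb of the gene. The unnamed genes AT1G14940, AT1G14950 and AT1G14960 also shared 7 over 4.31 kb. All regions of these 5 chains overlapped H3K27me3. In gene-poor chromatin the largest chain had 85 summits over 50.3 kb of chromosome 1 (15088352 to 15138636), a median spacing of 522.5 bp and 53 regions in H3K27me3, and no protein-coding gene was assigned to it. The next 4 chains there had 34 to 53 summits and between 0 and 2 regions in H3K27me3.

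Of the 16 lists of named genes drawn up for plant development and physiology, 2 stood well above the rest. Floral MADS-box genes had a FIE summit in 23 of 27 members (85.2%, interval 67.5 to 94.1) and meristem, boundary and organ polarity genes in 45 of 58 (77.6%, 65.3 to 86.4), against 9.33% of all protein-coding genes. The median of the members' highest folds was 7.58 and 7.70, against 4.78 over all marked genes. AG (25.5), the floral meristem gene AP1 (15.3), SEP2 (14.9), which specifies floral organs, and TT16 (13.0), which acts in the seed coat, were the strongest of the first list. It had 13 members with at least 2 summits. AGL13, AGL17, AGL19 and GOA were the 4 without. YAB3 (15.3), STY1 (14.7), PTL (14.6) and STM (14.2 within 1 kb) led the second, in which 33 members had at least 2 summits. The first of these sets abaxial fate, STY1 acts in gynoecium development and PTL, a trihelix gene, restrains growth between sepals.

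Within the meristem list the members without a summit included the stem cell peptide CLV3, its receptor CLV1, the boundary gene CUC1 and the HD-ZIP III genes PHV, REV and ATHB-15. WUSCHEL (WUS), which keeps the stem cells of the shoot, had 2 summits and a highest fold of 8.87. CUC2 (10.1, 3 summits) and CUC3 (5.46, 5 summits) were marked while their paralogue CUC1 was not. These genes were picked out after their values were seen.

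Regulators of cell types had the next shares, apart from seed products, which lay between them. Vascular and secondary wall regulators were marked in 13 of 24 (54.2%), led by NST1 (12.2), a NAC switch of fibre wall thickening, NAC007 (10.5), the phloem gene APL (9.12) and TMO6 (8.77). Stomatal and epidermal genes were marked in 7 of 17 (41.2%), with HDG2 (10.6), PDF2 (9.65) and ATML1 (7.37), homeobox genes of the epidermis, and SPCH (9.23), which starts the stomatal lineage. Root and hair cell regulators were marked in 12 of 33 (36.4%). Their strongest were MYB23 (13.2), which acts in trichomes and root epidermis, JKD (10.9), SMB (9.84), a NAC gene of the root cap, and GL2 (8.98), a homeobox gene of hair cell fate.

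Seed genes were marked at the level of regulators and of products. Embryo and seed maturation regulators had a summit in 8 of 23 (34.8%), led by FUS3 (10.03), AIL5 (9.66), LEC2 (9.03) and BBM (8.04), and LEC1 and ABI3 were without. FUS3 and LEC2 are B3 factors that switch on reserve storage. Seed storage and late embryo proteins had one in 7 of 19 (36.8%), with M17 (7.72), the 12S globulin genes CRU3 (7.04) and CRA1 (5.05), and the oleosin gene OLEO3 (6.47). The median of the highest folds was 6.61 for the regulators and 5.05 for the products.

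Hormone and flowering time lists were closer to the background. Auxin genes were marked in 10 of 38 (26.3%), with the synthesis gene YUC6 (9.80), the auxin response repressor IAA20 (7.05), the efflux carrier gene EIR1 (6.35, also PIN2) and YUC4 (5.53). Gibberellin and abscisic acid metabolism had 7 of 31 (22.6%). Its strongest members were GA2OX7 (6.37), ATGA2OX1 (4.84) and GA2OX8 (4.27), which inactivate gibberellin, and GA1 (4.27), which acts at the start of its synthesis. Cytokinin genes had 2 of 32 (6.25%), LOG2 (5.25) and LOG7 (4.21). Among flowering time regulators 6 of 30 (interval 9.51 to 37.3) were marked, led by RAP2.7 (11.0), LFY (8.00), TEM1 (6.34) and RAV2 (5.29). FT, FLC and the MAF genes of that list had no summit.

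Shares in the Polycomb lists had wide intervals that took in the 9.33% of all genes. None of the 8 PRC2 core genes had a summit (interval up to 32.4%), and for FIE itself the nearest lay 5823 bp away with a fold of 5.69. Since the line carries a FIE transgene, reads from the gene and from the insertion cannot be told apart. Of 20 genes for PRC1-like and PRC2-linked proteins 3 (15%, interval 5.24 to 36.0) were marked, EMF1 (26.8), VIN3 (4.72), which acts in vernalization, and AS1 (3.48), a MYB gene of leaf development. In the BPC family it was 1 of 7 (14.3%, interval 2.57 to 51.3), BPC2 (6.63). Photosynthesis genes had 0 of 33 (interval up to 10.4%) and housekeeping genes 1 of 18, the tubulin gene TUB4 (7.26).

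**Figure D4:**
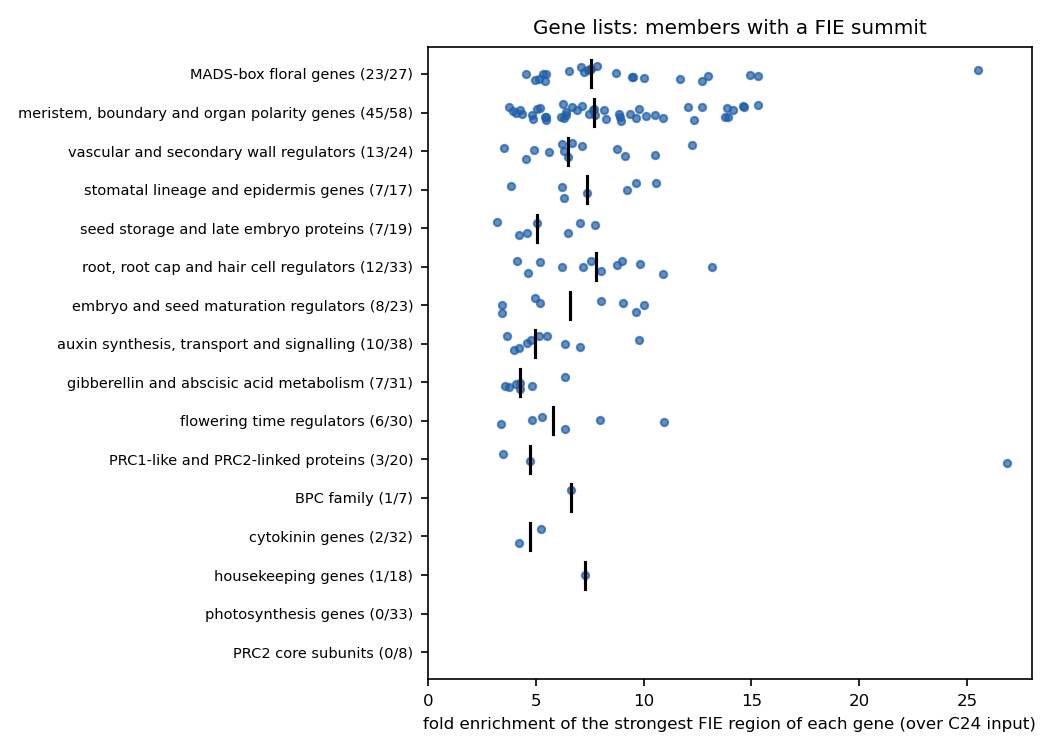
Fold enrichment over C24 input (horizontal axis) of the strongest FIE region of each marked gene, by gene list, with the number marked of the number of members in brackets; points are genes and vertical bars are medians. Floral MADS-box and meristem genes have medians of 7.58 and 7.70 and gibberellin and abscisic acid genes 4.27.

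Among 54 gene families, 27 had a FIE summit in at least 20% of their members, 14 lay under the share of all genes and 4 had none. Families were matched by symbols and synonyms, so members named otherwise are missing. Shares and rankings of families hold for matched genes alone. Among the marked genes left out were SPCH (9.23, bHLH), PLT2 (8.74, AP2/ERF) and TMO6 (8.77, Dof). Transcription factor families as a class were marked in 317 of 944 genes (33.6%, interval 30.6 to 36.7). Cell wall families were marked in 17.6%, signalling in 12.7%, metabolism in 12.6%, transport in 10.5% and core cell functions in 3.23% (7 of 217). At least 2 summits were found at 18.2% of transcription factor genes and at 2.53% to 3.30% of genes in the signalling, metabolism, cell wall and transport classes.

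Small families of organ development differed in their share. All 6 YABBY genes, which specify the lower side of lateral organs, had a summit, with YAB3 (15.3), CRC (12.7), AFO (10.5) and YAB5 (9.78) the strongest. SHI/STYLISH genes, which promote auxin synthesis in the gynoecium and other organs, had 9 of 11, with STY1 (14.7), LRP1 (13.2), STY2 (12.3) and SRS7 (12.0). ALOG genes had 8 of 10, with LSH6 (10.7), LSH10 (8.60), LSH2 (8.09) and LSH1 (8.01). TCP genes, which control growth and branching, had 13 of 22, with TCP5 (13.4), TCP2 (12.8), TCP15 (9.27) and TCP14 (9.11). GRF genes had 3 of 9, GRF6 (8.03), GRF5 (7.69) and GRF8 (6.77).

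Homeobox genes had 49 of 103 (47.6%), with STM (14.2), HB21 (11.6), AT5G15150 (10.9) and RPL (10.7), and zinc finger homeodomain genes 9 of 17, with HB21, HB24 (8.58), HB25 (7.96) and HB33 (7.48). Of 31 C2H2 zinc finger genes matched by name, 17 were marked, and the 4 strongest of these were INDETERMINATE DOMAIN genes. They were IDD12 (11.4), IDD16 (9.62), IDD5 (9.40) and IDD14 (9.13). The zinc finger genes JAG (13.8) and JKD (10.9) were not matched. AT-hook genes had 15 of 29, with AT4G12050 (12.3), AHL20 (11.1), AHL19 (11.0) and AHL22 (10.1). LOB domain genes, which act at organ boundaries and in lateral roots, had 17 of 42, with LBD39 (9.44), LBD18 (8.13), JLO (8.10) and LBD37 (7.58).

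WRKY genes, known mainly for defence and stress, had 26 of 72 (36.1%), with WRKY57 (11.1), WRKY13 (9.01), WRKY28 (8.79) and WRKY14 (8.22). NAC genes had 33 of 101 (32.7%), with NAC067 (15.9), NST1 (12.2), NAC007 (10.5) and CUC2 (10.1). The whole MADS-box family had 34 of 103 (33.0%), well under the 85.2% of its floral members. Dof genes had 6 of 16, with DAG1 (9.38), which acts in seed germination, AT4G00940 (6.43), DAG2 (5.69) and DOF2.4 (5.49). GATA genes had 8 of 29, with MNP (10.4), GNC (7.99), GATA19 (4.89) and GATA7 (4.78). MYB and MYB-related genes, at 28 of 144 (19.4%), and bZIP genes, at 4 of 47 (8.51%), had the smallest shares of the transcription factor families with over 40 members.

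Shares between those of NAC and MYB genes were found for GRAS (6 of 20), with LAS (13.9), HAM1 (6.38), RGA1 (5.35) and SHR (4.13), and SBP (5 of 18), with SPL8 (8.71), SPL9 (4.82), SPL13B (4.62) and SPL1 (4.60). AP2/ERF genes had 13 of 50, with RAP2.7 (11.0), AIL5 (9.66), ERF15 (9.47) and ERF10 (8.05). Of 34 bHLH genes matched by name, 7 were marked, with IBH1 (10.004), BNQ2 (7.52), BHLH32 (7.13) and AT1G72210 (7.06) the strongest. SPCH (9.23) was not among those matched.

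The median of the highest folds was 6.28 over marked transcription factor genes and between 4.33 and 4.85 in the signalling, metabolism, cell wall and transport classes. Single families departed from this: the 4 marked of 35 two-component response regulators, a signalling family, had a median of 8.52 and a highest fold of 13.1. The secreted EPF and EPFL peptides, which pattern stomata, had 3 of 6, CLL1 (6.68), CHAL (5.05) and EPF2 (3.86). The CLE peptides, which signal between stem cells and their neighbours, had 7 of 31, with CLE44 (5.81), CLE27 (5.09), CLE41 (5.04) and CLE9 (4.46). Aux/IAA repressors of auxin response had 9 of 29, with IAA7 (9.71), IAA2 (8.26), IAA20 (7.05) and IAA16 (6.91). Wall-modifying xyloglucan endotransglucosylases had 10 of 33, with XTH28 (13.9), XTH19 (7.78), XTH26 (7.68) and XTH30 (6.06). Sugar transporters had 9 of 36, with SWEET10 (8.92), SAG29 (6.78), SUC1 (5.41) and SWEET11 (5.10).

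Enzymes of cuticle and lignin formation followed, with 5 of 21 ketoacyl-CoA synthases, among them KCS20 (8.77), KCS16 (5.66), KCS2 (4.75) and KCS14 (4.65), and 4 of 17 laccases, IRX12 (4.73), LAC7 (4.72), LAC1 (4.21) and LAC16 (4.02). Late embryogenesis abundant proteins had 3 of 12, LEA7 (4.88), AtLEA4-1 (4.23) and LEA18 (4.01). At the lower end, ribosomal proteins had 0 of 57 (interval up to 6.31%), heat shock proteins 0 of 37, light-harvesting proteins 0 of 21, germin-like proteins 0 of 14 and LCR and defensin-like peptides 2 of 88. Of these 5 families, the intervals of the ribosomal proteins and of the LCR and defensin-like peptides (up to 7.91%) lay below the 9.33% of all genes, and the others reached it.

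**Figure D5:**
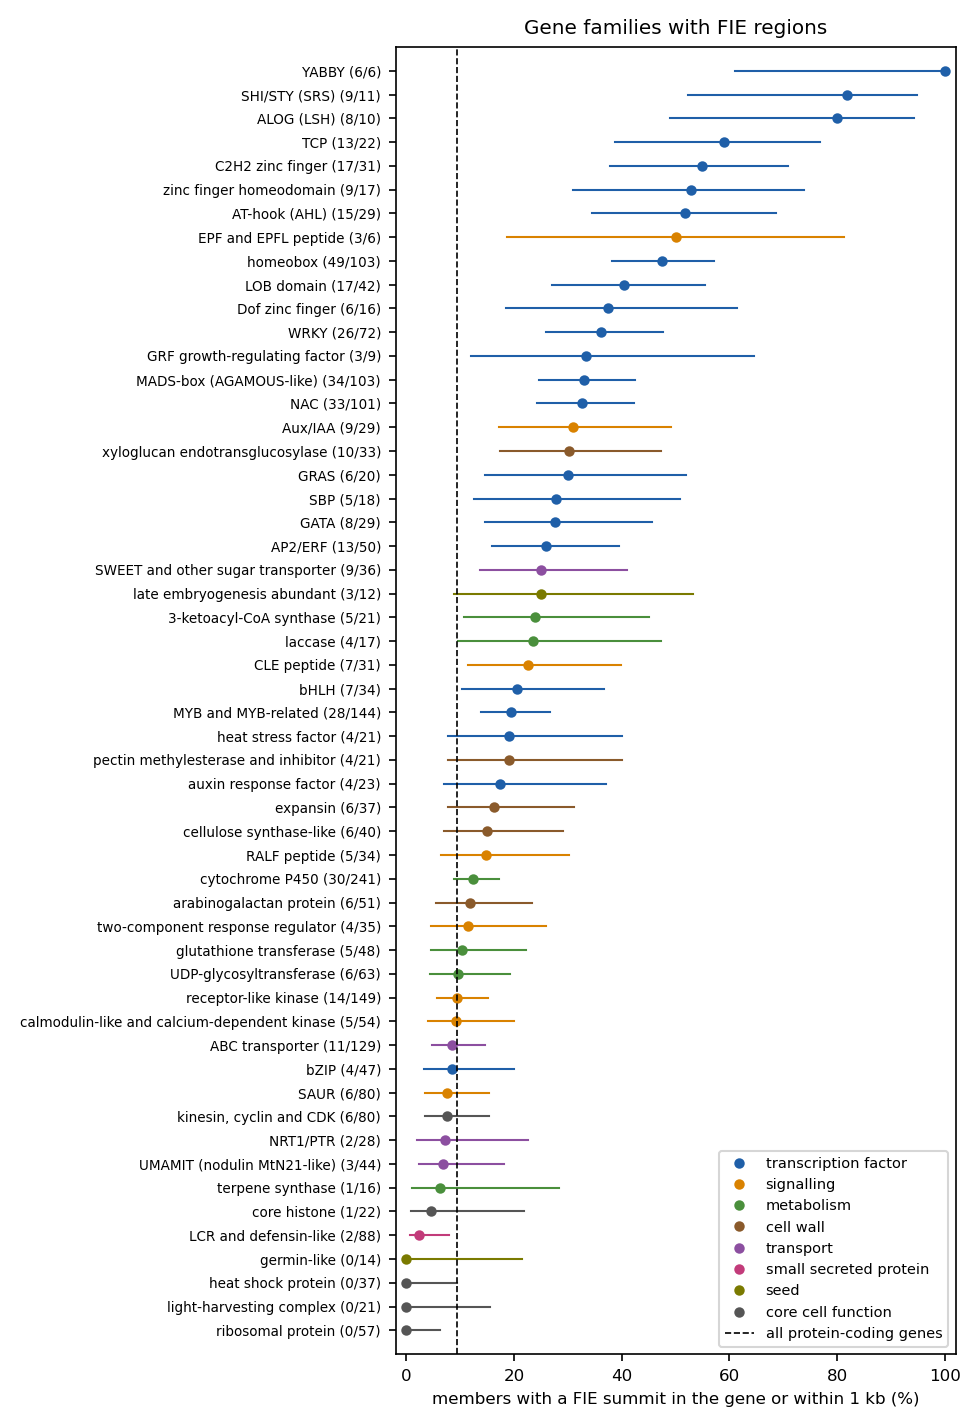
Share of members (horizontal axis, %) with a FIE summit in the gene or within 1 kb for 54 gene families, coloured by class. Lines are 95% Wilson intervals for counting error. Brackets give marked members and all members matched by name. The dashed line is the 9.33% of all protein-coding genes, and families from YABBY (100%) down to the ribosomal proteins (0%) are in order of their share.

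Most genes with H3K27me3 in Col had no FIE summit, and the share that had one differed between gene classes. Of 7492 protein-coding genes with an H3K27me3 region in or within 1 kb, 1696 (22.6%) had a FIE summit, and of 19952 without one 864 (4.33%) did. Transcription factor genes with the mark had FIE in 253 of 437 cases (57.9%), more than marked genes of metabolism (35 of 152, 23.03%), signalling (27 of 110, 24.5%), cell wall (16 of 62, 25.8%) and transport (15 of 84, 17.9%). By family, FIE was at 11 of 13 TCP, 38 of 53 homeobox and 22 of 35 WRKY genes with the mark. It was at 24 of 81 MYB, 22 of 100 cytochrome P450 and 3 of 23 UMAMIT transporter genes with it. Among xyloglucan endotransglucosylases FIE was about as frequent outside the mark (7 of 22) as with it (3 of 11), and for Aux/IAA genes the counts were 6 of 21 outside and 3 of 8 with it. IAA7, with a fold of 9.71, and XTH28, with 13.9, were the strongest of those families and had no H3K27me3 region. The accession and the control differ between the FIE and H3K27me3 lists, so differences between plants and between genes cannot be told apart.

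FIE regions also marked genes that encode no protein. Of 10455 such nuclear genes, 10.1% had a summit in the gene or within 1 kb. The share was 16.0% for microRNA genes (52 of 326, interval 12.4 to 20.3), 14.0% for pseudogenes (548 of 3917) and 8.07% for long non-coding RNA genes (281 of 3480). It was 3.04% for tRNA genes (19 of 625) and 0.348% for small nucleolar RNA genes (1 of 287). MicroRNA, long non-coding RNA, tRNA and small nucleolar RNA genes are short, with median lengths of 144.5, 343, 73 and 92 bp. For these the 1 kb margins make up most of the window searched. Pseudogenes, at a median of 2043 bp, were about as long as protein-coding genes (2078 bp).

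Among the microRNA genes with the strongest regions were members of conserved families that time the life cycle and shape organs, beside MIR854 genes and MIR5015. MIR169e had a fold of 17.3 in a region of 2285 bp (chromosome 1, 20041526 to 20043810) that also lies in AT1G53690. MIR156f, of the family that keeps plants juvenile, had 12.7 with its summit in the microRNA gene itself (chromosome 5, 9136063 to 9136949). MIR172d and MIR172a, which promote the adult phase and flowering, had 12.3 (chromosome 3, 20586896 to 20588276) and 10.9 (chromosome 2, 11942553 to 11944077). MIR394b, of a family that acts in the shoot stem cell niche, had 9.63, MIR319a, which restrains TCP genes, 9.42, and MIR160a, which restrains auxin response factors, 8.95. Those 7 regions overlapped H3K27me3, and 33 of the 52 marked microRNA genes had their strongest summit more than 1 kb from any protein-coding gene. The strongest summit of MIR5015 (10.5) lay 4 bp from the protein-coding gene NF-YC7, so which of these genes it marks cannot be told.

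By family, FIE was at 3 of 5 miR172 genes, 4 of 7 miR166 genes, 2 of 2 miR165 genes, 2 of 2 miR394 genes, 2 of 3 miR319 genes, 3 of 10 miR156 genes and 3 of 14 miR169 genes. The miR165 and miR166 genes, which limit the HD-ZIP III genes of adaxial fate, had folds from 5.12 to 8.36. All 5 miR854 genes were marked as well, with folds from 6.53 to 11.4, but they lie in gene-poor windows of chromosome 5 inside chains of 7 to 53 summits. MIR854e (11.4) and MIR854d (9.54) were the strongest of them. MIR774a and MIR774b shared 1 region, as did MIR858a and MIR858b.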

How the data were processed

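Sequencing libraries of FIE ChIP and C24 input (3 samples each) were turned by the authors into 1 list of regions; the labels do not say how replicates were combined or with which settings. The submitters' processing notes name MACS2 2.1.1.20160309, Bowtie2 and bedtools, with TAIR10 as the build. The deposited list gives each region a fold enrichment over control (a ratio), a −log10 q and a score. In 100% of rows the score is the −log10 q multiplied by 10 without its decimals, and no region is under 10 in −log10 q. Its region names are numbered up to 16529, so regions were removed after calling. It gives no read counts, so depth is unknown.

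From these values, regions on chromosomes 1 to 5 were assigned to genes by their summits. Genes came from RefSeq for TAIR10.1, whose nuclear chromosomes were taken as numbered as in TAIR10. The share of arm summits inside genes was 57.9% unshifted and 41.7% to 51.3% after shifts of 500 to 2000 bp, but 59.6% and 59.9% at 20000 bp, so this check holds at short range alone. H3K27me3 regions, which have no summit, were assigned by any overlap with the gene extended by 1 kb. An overlap between regions counted from 1 bp. Of 428 list entries 420 were matched, 14 by hand, and families were defined by symbols and synonyms. Members and lists were chosen with earlier results of these data known. Named genes were those nearest the 15 regions of highest fold, the 15 with most summits, those at the 10 longest chains on arms, the 4 of highest fold in each list and in each family of at least 5 members with 20% marked, and up to 10 microRNA genes. No test was made over regions or genes. The functions were checked on simulated regions. Python 3.11.15, pandas 2.3.3 and scipy 1.17.1 were used.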

Additional observations from a re-analysis of the deposited data

Results flagged for a closer look

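The FIE list also held 135 regions on the chloroplast genome and 1 on the mitochondrial genome, which no comparison above uses. They were called over the input of the same line. Chloroplast regions had a median fold of 2.71, with a range from 2.24 to 4.17, and a median width of 365 bp. Their highest fold was below the nuclear median of 4.70. What they stem from was not tested.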

How the results depend on the processing

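A stricter limit of 20 in −log10 q left 1600 regions (median fold 6.31, width 464.5 bp, neighbour distance 8873 bp, 44.8% inside genes), 855 marked genes, 190 with at least 2 summits, 118 chains of 3 or more and 58.1% of summits in chains. Lists then moved to 1 gene for PRC1-like proteins, 3 for flowering time, 4 for embryo regulators, 3 for seed storage, 4 for auxin, 0 for cytokinin and 0 for gibberellin and abscisic acid. Gene bodies alone gave 1602 marked genes, 396 with at least 2 summits, 4 seed storage genes and 0 housekeeping genes. Housekeeping genes also fell to 0 at 500 bp margins and with each summit given to its nearest gene (an alternative chosen after seeing the data), and photosynthesis genes had 2 at 2 kb margins. On arms alone the median fold was 4.78, the width 293 bp, the neighbour distance 8771.5 bp, the share inside genes 57.9% and the share in chains 59.3%. Chain gaps of 1 kb gave 277 chains of 3 or more and 44.5% of summits in chains, and 5 kb gave 72.5%. Where 50% of a FIE region had to be covered, 20.7% overlapped AZF1 and 12.9% BPC1.

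The fixed lists stayed within 1.5 times their count in 100 of 112 comparisons and the families in 316 of 378. A count of 0 in both settings was included as unchanged. The stricter limit of 20 in −log10 q alone moved 7 of 16 lists and 39 of 54 families beyond 1.5 times. At the stricter limit, 12 of 54 families and 2 of 16 lists changed sides of the share of all genes, which was then 3.12%. No paired analysis was possible because the lists hold no values of single replicates, and leaving out replicates was not run for the same reason. The planned motif counts in promoter windows were not run, as no sequence was used here.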

Other observations

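MicroRNA genes and the genes they are known to restrain were set side by side for 8 groups of conserved microRNAs, chosen after the microRNA results were seen. FIE marked 20 of the 43 microRNA genes, against 16.0% of all microRNA genes (52 of 326). It marked 14 of the 45 target genes, against 9.33% of all protein-coding genes. The targets are transcription factor genes, a class marked in 33.6% (317 of 944), so their count was near the share of that class. For miR165 and miR166 the counts were 6 of 9 microRNA genes and 2 of 5 HD-ZIP III targets, PHB (3.95) and HB-8 (3.77); the targets' folds were below every fold of the microRNA genes. For miR172 the counts were 3 of 5 and 1 of 6, and the marked target was RAP2.7 (11.0), an AP2-type repressor of flowering. For miR156 and miR157 they were 5 of 14 and 3 of 11, with folds of 12.7, 5.76, 5.19, 4.30 and 3.32 at MIR156f, MIR157c, MIR156e, MIR156d and MIR157d and of 4.82, 4.62 and 3.87 at SPL9, SPL13B and AT1G69170, so both sides overlapped. For miR160, 1 of 3 microRNA genes and 0 of 3 auxin response factor targets were marked. In miR319 and miR164 the targets were marked in 3 of 5 and 3 of 6, with TCP2 (12.8) and CUC2 (10.1) the strongest. For miR396 it was 1 of 2 and 1 of 7, and for miR167 1 of 4 and 1 of 2. The groups are small, and no test was made.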
